A study of Mus musculus with 45 samples.

Results

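Genes for 7 enzymes of cholesterol synthesis and 1 regulator of the pathway were followed along the length of early postimplantation mouse embryos. The enzymes, in order of their step, were Hmgcs1, Idi1, Fdps, Fdft1, Sqle, Cyp51 and Dhcr7, and the regulator was Insig1. They were found by gene symbol, and all 8 had a row in each of the 3 stage tables, which held 10176 genes at E5.25, 13060 at E5.5 and 13618 at E5.75. The study followed expression from the proximal to the distal end of untreated embryos, taken out of the decidua and frozen, whose strain is not given in the sources used here. Small pieces were cut by laser from numbered sections, and their RNA was sequenced with Smart-seq2, which copies full-length transcripts from few cells. Values were used for 2 libraries marked VE (sections 6 and 7 of E5.75), for 7 section numbers at E5.25, 9 at E5.5 and 17 at E5.75, where sections 9 and 13 are left out because they were not analysed here. VE commonly stands for visceral endoderm, the outer cell layer of the embryo. The labels name no second embryo for any stage, so p-values measure the spread between sections, not between embryos. They do not say which end of the axis section 1 is, so every direction is one of section number.

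Cholesterol is built from acetyl-CoA through mevalonate to farnesyl diphosphate, then to squalene, and through lanosterol to cholesterol. Farnesyl diphosphate is also the source of ubiquinone, dolichol and the lipid anchors of many proteins, so the pathway branches there. When membranes run short of sterol, the transcription factor SREBP-2 is released from the endoplasmic reticulum and turns on most genes of the pathway, among them Insig1, whose product holds SREBP back when sterol is plentiful. In the rodent embryo before the placenta works, visceral endoderm takes up maternal nutrients and secretes lipoproteins, and growing cells also make cholesterol of their own. Mutation of DHCR7 in people causes Smith-Lemli-Opitz syndrome, a disorder of development.

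The promoter sequences of 3 members are shown because SREBP-2 acts on this pathway with the partner factors NF-Y and Sp1. They come from RefSeq (GRCm38.p6), each with 250 bases before and 50 after the annotated start, on the gene's own strand. Capitals mark the sterol regulatory element TCACNCCAC, the NF-Y box CCAAT and the GC box GGGCGG, found on either strand, so that ATTGG and CCGCCC are the same boxes on the other strand. Hmgcs1 (chr13:119690101-119690400, plus strand) was the matched member with all 3 motifs, Insig1 (chr5:28071162-28071461, plus strand) is the regulator, and Cyp51 (chr5:4104648-4104947, minus strand) acts late in the pathway.
Hmgcs1: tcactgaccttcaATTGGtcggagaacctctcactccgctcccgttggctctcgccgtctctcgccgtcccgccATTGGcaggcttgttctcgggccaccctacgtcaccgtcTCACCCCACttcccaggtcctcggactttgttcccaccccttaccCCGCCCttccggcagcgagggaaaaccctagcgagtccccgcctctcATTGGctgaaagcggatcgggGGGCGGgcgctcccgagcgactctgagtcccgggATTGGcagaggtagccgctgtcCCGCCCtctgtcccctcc
Insig1: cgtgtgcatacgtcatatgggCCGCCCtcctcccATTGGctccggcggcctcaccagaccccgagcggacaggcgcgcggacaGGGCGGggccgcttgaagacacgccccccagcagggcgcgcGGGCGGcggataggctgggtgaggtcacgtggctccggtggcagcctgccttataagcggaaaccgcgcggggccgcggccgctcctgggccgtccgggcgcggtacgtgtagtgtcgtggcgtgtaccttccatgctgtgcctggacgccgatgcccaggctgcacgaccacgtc
Cyp51: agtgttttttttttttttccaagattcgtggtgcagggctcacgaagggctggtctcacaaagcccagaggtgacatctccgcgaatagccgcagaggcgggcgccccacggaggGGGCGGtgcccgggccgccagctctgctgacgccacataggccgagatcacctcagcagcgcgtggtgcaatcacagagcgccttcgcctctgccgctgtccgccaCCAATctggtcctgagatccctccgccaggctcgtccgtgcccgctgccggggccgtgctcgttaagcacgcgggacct

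The table of promoters matched 5 of the 8 symbols: Hmgcs1, Idi1, Cyp51, Dhcr7 and Insig1. The sterol regulatory element was found in 1 of these 5, Hmgcs1, where it has its first base at position -137 from the annotated start, against 1.24% of all 32851 promoters of the same length. The 5 genes had 7 promoters, 3 of them of Dhcr7. CCAAT was found in 5 of the 7, against 37.4% of all promoters, and GGGCGG in 6 of the 7, against 35.7%. Hmgcs1 held 4 CCAAT boxes and 3 GC boxes, Insig1 held 1 and 3, and Cyp51 held 1 of each. These matches describe the letters of the windows only.

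The genes lie on chromosome 13 (Hmgcs1, 119690379 to 119708260, and Idi1, 8885501 to 8892451), 3 (Fdps, 89093588 to 89101959), 14 (Fdft1, 63145150 to 63179578), 15 (Sqle, 59315077 to 59331192), 5 (Cyp51, 4081145 to 4104746, and Insig1, 28071363 to 28078662) and 7 (Dhcr7, 143823145 to 143848410), in GENCODE vM21 coordinates of GRCm38, which is mm10. All are protein-coding. Some reads of 3 members could also fit near-identical copies. Fdps has 5 processed pseudogenes with 91.1% to 98.9% identity over at least 300 bases of its longest transcript, and Gm43738 shares 1124 exonic bases with it on the same strand. Idi1 has 3 such pseudogenes, 1 of them with 100% identity over 684 bases, and Fdft1 has 1 with 97.4% identity. Exons of Fdft1 share 774 bases with Ctsb, a lysosomal protease gene on the opposite strand. Cyp51 shares 166 exonic bases with Akap9 in the same way, while Hmgcs1 overlaps Gm48342 and Idi1 overlaps Gm48574, both also on the opposite strand. How reads from such regions were counted is not given in the sources used here, so the values of these 5 genes carry that uncertainty.

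Values are log2(FPKM + 1), where FPKM counts fragments per kilobase of transcript, scaled to the size of the library. Detection, the number of genes with an FPKM of 1 or more, differed between libraries. It was 1496 and 2147 in VE of sections 6 and 7. It was 2046 to 4282 in sections 1 to 4 of E5.25 and 5636 to 6461 in the later ones. Sections 1 and 2 had 2288 and 4019 at E5.5 and 3211 and 3424 at E5.75, and all others 4621 to 6467 at E5.5 and 5303 to 8217 at E5.75. Because so many genes are undetected there, a value of 0 is called a listing of 0. The tables hold no counts, and depth is unknown.

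In sections with at least 5000 detected genes, Fdps stood highest at every stage. This enzyme makes farnesyl diphosphate, the branch point. Its mean level, on a scale that is already per transcript length, was 5.33 ± 0.52 in the E5.25 libraries (SD, n = 3 sections), 5.0 ± 0.30 at E5.5 (n = 5) and 5.16 ± 0.89 at E5.75 (n = 15). At E5.5 it exceeded Hmgcs1, next in order, in 5 of 5 such sections by 1.72 ± 0.51 (mean difference and SD). At E5.75 it did so in 11 of 15 sections, by 1.06 ± 1.19, so these neighbours overlap there. At E5.25 the gap to Insig1, then in the next place, was 0.65 ± 1.03.

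The order of the other members at E5.75 was Hmgcs1 (4.10 ± 0.86), Sqle (3.55 ± 0.56), Fdft1 (3.30 ± 0.85), Idi1 (3.29 ± 1.02), Insig1 (3.01 ± 0.93), Dhcr7 (2.60 ± 0.96) and Cyp51 (2.58 ± 1.0). Each differed from its neighbour by less than the SD of the difference. At E5.5 the last place belonged to Dhcr7, the final reductase of the pathway, with 1.48 ± 0.13. There it lay below Cyp51 in 5 of 5 sections, by 0.76 ± 0.54. All the other neighbours below Hmgcs1 at E5.5 were within the SD of their difference. At E5.25, with 3 sections, Insig1 averaged 4.67 ± 0.97 and the 6 enzymes after Fdps averaged 2.53 to 3.96. The 3 tables were normalized separately, so only the order within a stage is compared. Together the members held 0.0913% to 0.114% of the summed FPKM, Rn45s left out, in those sections of E5.25. Their share was 0.0390% to 0.0605% for E5.5 and 0.0239% to 0.0802% for E5.75.

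At E5.75, 4 of the 8 members rose with section number and none fell, while 18.9% of all 11149 genes tested rose and 2.07% fell. Those that rose were Fdps, Sqle, Cyp51 and Dhcr7. For the early enzymes Hmgcs1 and Idi1, for Fdft1 and for the regulator Insig1 the line did not pass at an adjusted p of 0.05. All 8 fitted changes from the first to the last section were above 0, with a median of 2.21 on the log2 scale, and the median of all genes tested was 0.80. With the number of genes detected as a covariate, 2 of 8 were above 0, with a median of -0.32. Sections 1 and 2 carry much of this. In section 1 all 8 members were listed at 0, as were 46.3% of 3359 genes that reached an FPKM of 1 in every section from 5 on, and 6 of 8 were listed at 0 in both sections, against 21.6% of those genes. Without both sections, Fdps was the only member that passed, where 9.38% of genes rose.

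**Figure D1:**
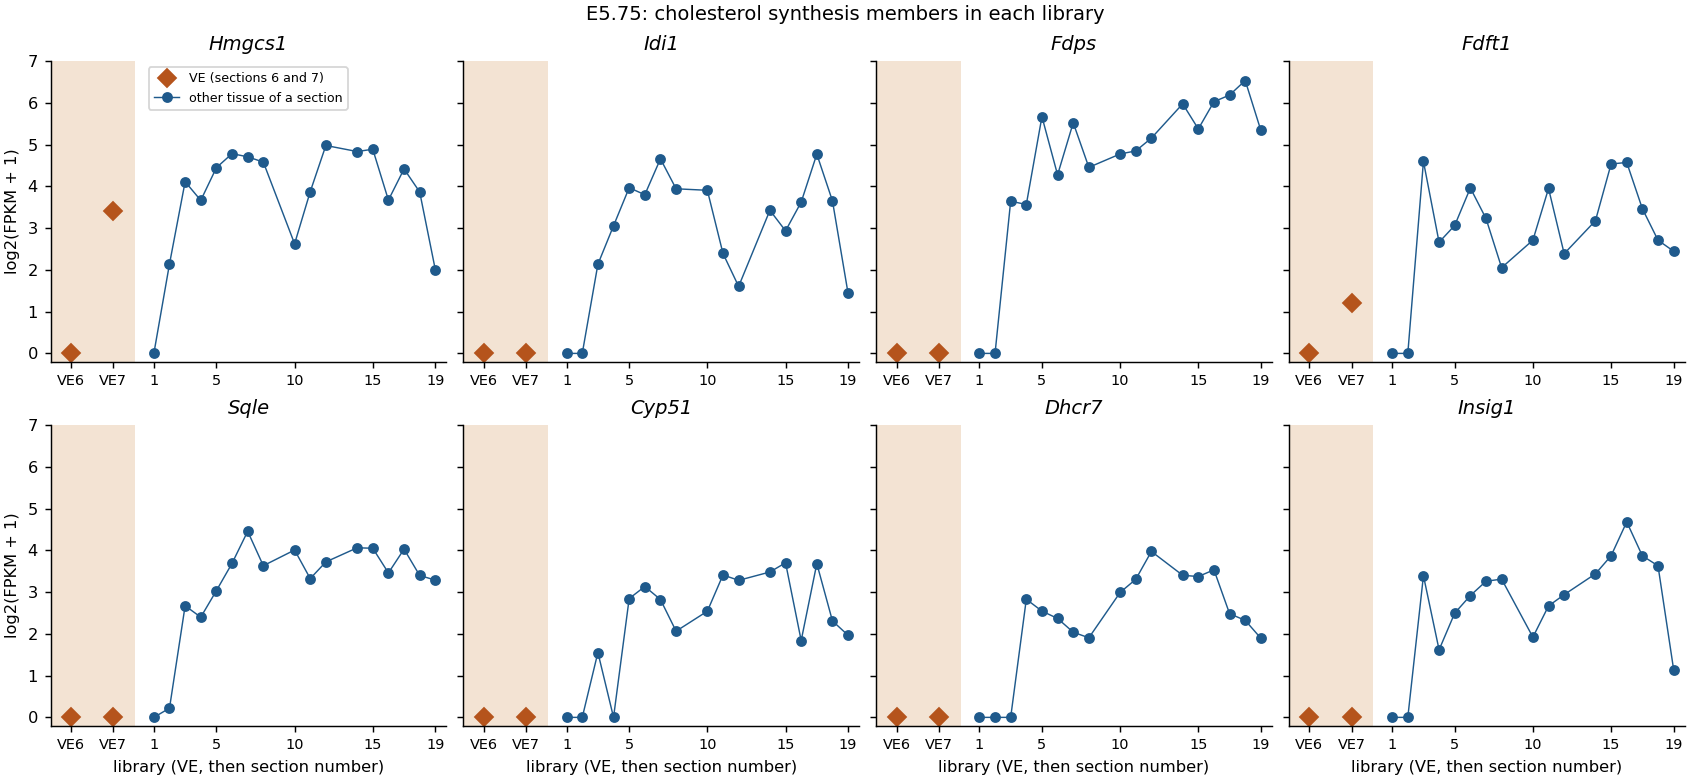
Level of each member, as log2(FPKM + 1), in the E5.75 libraries. The shaded strip at the left of each panel holds the VE libraries of sections 6 and 7 (diamonds), and circles joined by a line are the other libraries in order of section number. Fdps climbs to 6.53 in section 18, while Hmgcs1 and Idi1 stand as high in sections 5 to 8 as later on. All 8 members are listed at 0 in section 1.

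Hmgcs1, which makes HMG-CoA at the head of the pathway, was listed at 0 in section 1 and stood at 2.14 in section 2. From section 3 on it lay between 2.0 in section 19 and 4.98 in section 12, with a median of 4.42. Its medians were 4.51 in sections 3 to 8 and 3.87 in sections 10 to 19, and these ranges overlap. The line gave a change of 1.11 ± 0.93 (SE over 17 sections) with an adjusted p = 0.406 in limma, after Benjamini-Hochberg. Without sections 1 and 2 it was -0.69 ± 0.64 (adjusted p = 0.520).

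Idi1, the isomerase that supplies the starter unit for isoprenoid chains, was listed at 0 in sections 1 and 2. After that it ranged from 1.43 in section 19 to 4.77 in section 17, with a median of 3.62. Its other high value was 4.66 in section 7, and sections 3, 11, 12 and 19 were all below 2.5. Its change was 1.51 ± 0.97 (adjusted p = 0.271, limma), and without sections 1 and 2 it was -0.33 ± 0.76 (adjusted p = 0.827).

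Fdps was listed at 0 in sections 1 and 2, stood at 3.65 and 3.57 in sections 3 and 4, and reached 6.53 in section 18. Its median was 4.37 in sections 3 to 8, where values ran from 3.57 to 5.67, and 5.38 in sections 10 to 19, where they ran from 4.78 to 6.53. The ranges overlap, since sections 5 and 7 were as high as several later ones. The fitted rise was 4.41 ± 0.90 (adjusted p = 0.00157, limma, n = 17), larger than that of 98.1% of the genes tested. Without sections 1 and 2 it was 2.02 ± 0.49 (adjusted p = 0.00882, n = 15 sections). It was 1.70 without sections 1 to 3 (adjusted p = 0.0316), a choice made after the data had been seen. When detection was made a covariate the change was 1.01 ± 0.77 and did not pass (adjusted p = 0.547). Over the 15 sections from section 3 on, the level of Fdps went with the number of detected genes (Pearson r = 0.78), and the part of detection in its rise was not tested beyond that fit.

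Within a library, Fdps can be set against Hmgcs1 without regard to the total. The difference Fdps minus Hmgcs1 ran from -0.51 to 1.22 in sections 3 to 8, with a median of -0.11, and from 0.18 to 3.33 in sections 10 to 19, with a median of 1.77. In the first range Hmgcs1 was the higher of the pair in 4 of 6 sections, namely 3, 4, 6 and 8. In the second Fdps was higher in 9 of 9. The difference was largest in sections 18 and 19, at 2.67 and 3.33. This comparison of 2 members was chosen after the values had been seen and has no test. Fdps was the most abundant member per length in all 9 sections from 10 on.

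The squalene enzymes followed. Fdft1, which joins farnesyl diphosphate into squalene, was listed at 0 in sections 1 and 2. From section 3 on it ranged from 2.05 in section 8 to 4.60 in section 3, with a median of 3.18. Neither end of the embryo stood out, since values over 4.5 occurred in sections 3, 15 and 16. The change was 1.68 ± 0.91 (adjusted p = 0.186, limma). Ctsb, which shares exonic bases with it on the other strand, had 1.28 to 2.95 in sections 3 to 8 and 3.32 to 4.73 in sections 10 to 19, and its part in the values of Fdft1 was not tested.

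Sqle, the squalene epoxidase, which is a rate-limiting step on the way to sterols, was listed at 0 in section 1 and stood at 0.22 in section 2. In sections 3 to 19 it lay between 2.40 in section 4 and 4.46 in section 7, with a median of 3.63. From section 10 on it kept to a narrow band, 3.29 to 4.06. The rise over all sections was 2.37 ± 0.78 (adjusted p = 0.0331, limma), and without sections 1 and 2 the change was 0.64 ± 0.51 (adjusted p = 0.441).

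The sterol enzymes Cyp51 and Dhcr7 were not only low at the start. Cyp51, which removes a methyl group from lanosterol, was listed at 0 in sections 1, 2 and 4 and reached 3.70 in section 15. Its median was 2.44 in sections 3 to 8 and 3.28 in sections 10 to 19. The fitted rise was 2.24 ± 0.81 (adjusted p = 0.0494, limma), and without sections 1 and 2 it was 1.06 ± 0.74 (adjusted p = 0.376). Dhcr7 was listed at 0 in sections 1 to 3, then declined over sections 4 to 8 (2.83, 2.54, 2.37, 2.04 and 1.91), and peaked at 3.97 in section 12. In sections 10 to 16 every value (2.99 to 3.97) was above all those of the earlier sections. Values of 2.48, 2.32 and 1.89 followed in sections 17 to 19. The line rose by 2.30 ± 0.79 (adjusted p = 0.0398, limma), and without sections 1 and 2 the change was 1.12 ± 0.72 (adjusted p = 0.331).

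Insig1 was listed at 0 in sections 1 and 2, and then ranged from 1.14 in section 19 to 4.68 in section 16, with a median of 3.26. The 5 sections from 14 to 18 were high (3.44 to 4.68), and section 19 was the lowest from section 3 on. The change of 2.17 ± 0.85 did not pass (adjusted p = 0.0697, limma). Without section 19 it was 2.96 ± 0.75 and passed (adjusted p = 0.00927), but it did not pass without sections 1 and 2. Among 31 other settings of the fit it passed in 3, and the change ran from -0.04 to 3.83.

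Section 19 was also the lowest from section 3 on for Hmgcs1 and Idi1. There the members summed to 0.0239% of the FPKM outside Rn45s, against 0.0548% in section 18. Of 6 decidual genes, which mark the maternal tissue around the embryo, 4 were detected in section 19, as in sections 10, 14, 16, 17 and 18. Their summed FPKM was 304 in section 19 and 3.41 to 146 in the other sections from 10 on. Dcn and Hoxa10 of that list were listed at 0 there. The 8 ectoplacental cone genes summed to 1576 in section 19 and 120 to 1648 in sections 10 to 18. The part of other cell types in the low values was not tested. In such tissue pieces, fewer cells of a type and less RNA per cell cannot be told apart.

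Cell types change along the same axis. The 8 epiblast markers summed to 387 to 731 FPKM in sections 3 to 8 and 36.5 to 157 in sections 10 to 19. The 8 markers of extraembryonic ectoderm, a trophoblast tissue, summed to 1.66 to 7.01 and 71.1 to 323 in these ranges. Of the epiblast list 7 of 8 fell along the E5.75 line, and 5 of 8 extraembryonic ectoderm and 8 of 8 ectoplacental cone genes rose. All 8 members had overlapping values on both sides of this divide. Whether the rise of Fdps belongs to a tissue was not tested.

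**Figure D2:**
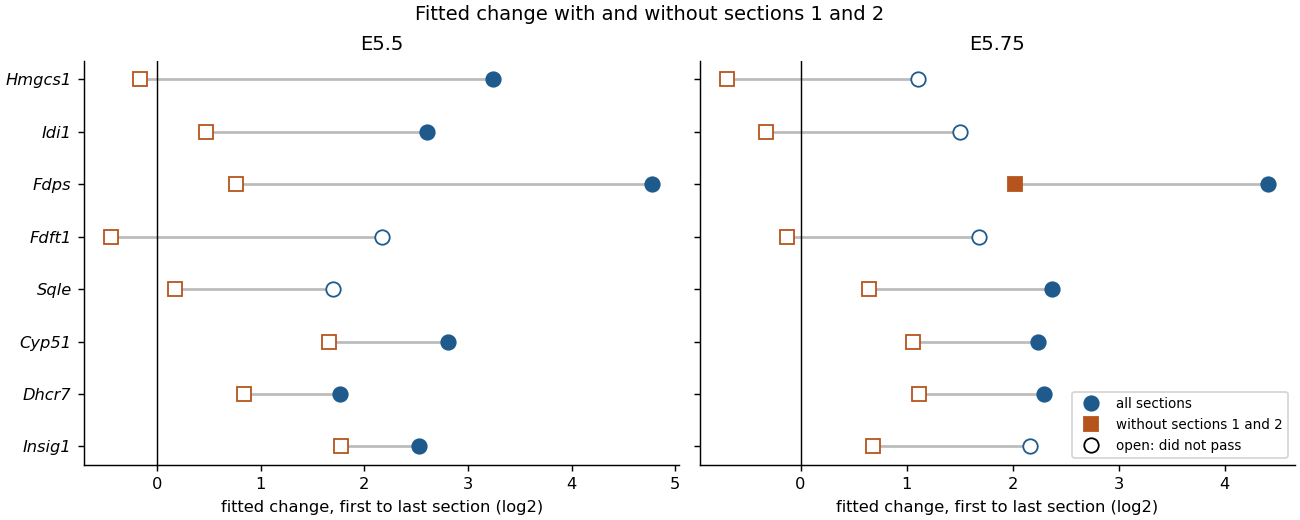
Fitted change of each member from the first to the last section (log2) at E5.5 and E5.75, over all sections (circles) and without sections 1 and 2 (squares); filled symbols passed at an adjusted p of 0.05. At E5.5 no square is filled, and at E5.75 the filled square is that of Fdps, at 2.02.

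At E5.5, 6 of 8 members rose with section number, where 28.3% of the 8251 genes tested rose and 2.61% fell, and no member fell. They were Hmgcs1, Idi1, Fdps, Cyp51, Dhcr7 and Insig1, and Fdft1 and Sqle did not pass. Here the members' median change was 2.57 and that of all genes 1.22. In section 1, 6 of 8 members were listed at 0, as were 66.9% of 2939 genes that reached an FPKM of 1 in every section from 5 on. In section 2 it was 4 of 8 members and 27.2% of those genes. Without both sections 0 of 8 members passed, where 3.71% of genes rose. Rn45s took 69.8% and 56.4% of the summed FPKM in sections 1 and 2 and 2.36% to 35.5% in the later columns, falling along the line by 5.45 ± 0.56 (adjusted p = 2.51e-04, limma), and Gapdh was listed at 0 in section 1. Of the marker genes 5 of 8 for ectoplacental cone and 3 of 8 for extraembryonic ectoderm rose. The part of either in the members' rise was not tested.

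**Figure D3:**
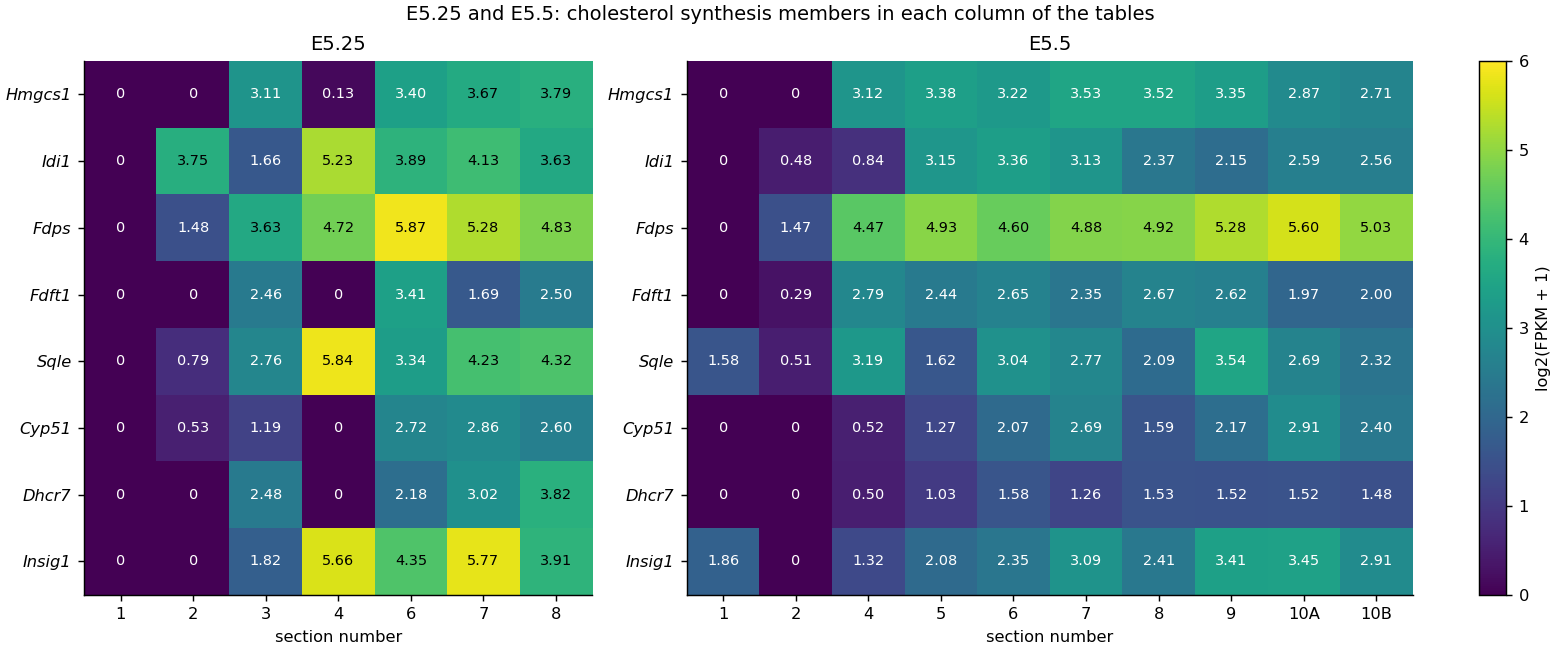
Level of each member, as log2(FPKM + 1), in every column of the E5.25 and E5.5 tables, by section number; 10A and 10B are the parts of section 10. At E5.25 section 1 holds only listings of 0, and at E5.5 Fdps is the highest member in every column but that of section 1.

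Among the mevalonate and isoprenoid enzymes at E5.5, Hmgcs1 was listed at 0 in sections 1 and 2 and had 3.12, 3.38, 3.22, 3.53, 3.52 and 3.35 in sections 4 to 9. Parts A and B of section 10 had 2.87 and 2.71. It was thus flat once detected, and the rise of 3.25 ± 1.01 (SE, n = 9, adjusted p = 0.0234, limma) became -0.16 ± 0.67 without sections 1 and 2 (adjusted p = 0.906). Idi1 was listed at 0 in section 1, stood at 0.48, 0.84, 3.15 and 3.36 in sections 2, 4, 5 and 6, and then at 3.13, 2.37, 2.15, 2.59 and 2.56 in sections 7 to 9 and both parts of section 10. Its values were highest in the middle of the embryo, and the fitted rise was 2.60 ± 0.95 (adjusted p = 0.0461). Fdps was listed at 0 in section 1 and stood at 1.47 in section 2, and had 4.47, 4.93, 4.60, 4.88, 4.92 and 5.28 in sections 4 to 9. In section 10 it had 5.60 and 5.03, and the first of these was the highest value of any member at this stage. Its rise was 4.77 ± 1.06 (adjusted p = 0.00418, limma), and 0.76 ± 0.57 without sections 1 and 2 (adjusted p = 0.438).

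Fdft1 was listed at 0 in section 1, stood at 0.29 in section 2 and at 1.97 to 2.79 elsewhere, with its highest value in section 4 and its lowest in section 10. The change was 2.18 ± 0.89 (adjusted p = 0.0714, limma). Sqle had 1.58 in section 1, 0.51 in section 2, and then 3.19, 1.62, 3.04, 2.77, 2.09 and 3.54 in sections 4 to 9, with 2.69 and 2.32 in the parts of section 10. High and low values alternated, and the change of 1.70 ± 0.91 did not pass (adjusted p = 0.155).

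Of the late enzymes and the regulator, Cyp51 was listed at 0 in sections 1 and 2 and had 0.52, 1.27, 2.07, 2.69, 1.59 and 2.17 in sections 4 to 9, with 2.91 and 2.40 in section 10. Its rise was 2.81 ± 0.73 (adjusted p = 0.00939, limma), and 1.66 ± 0.75 without sections 1 and 2 (adjusted p = 0.196). Dhcr7 was listed at 0 in sections 1 and 2, had 0.50 and 1.03 in sections 4 and 5, and 1.26 to 1.58 from section 6 on. It was low and even there, and its rise was 1.77 ± 0.61 (adjusted p = 0.0370). Insig1 had 1.86 in section 1 and 0 in section 2, then 1.32, 2.08, 2.35, 3.09, 2.41 and 3.41 in sections 4 to 9, and 3.45 and 2.91 in section 10. The highest values lay at the high end, and the rise was 2.53 ± 0.84 (adjusted p = 0.0323). Without sections 1 and 2 it was 1.78 ± 0.70 (adjusted p = 0.148). The 2 parts of section 10 differed by 0.02 in Fdft1 and by 0.57 in Fdps, the smallest and the largest gap of the 8 members.

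At E5.25, 0 of 8 members passed, against 0.406% of the 7148 genes tested, and 6 of 8 were under an unadjusted p of 0.05, against 34.9% of genes. Every fitted change was above 0, between 2.53 and 5.13 with a median of 3.73, and that of all genes was 1.45. Fdps was listed at 0 in section 1 and had 1.48, 3.63, 4.72, 5.87, 5.28 and 4.83 in sections 2, 3, 4, 6, 7 and 8, and Sqle had 0.79, 2.76, 5.84, 3.34, 4.23 and 4.32 in these. Both were thus low in sections 1 and 2 only. The largest changes were those of Insig1 (5.13 ± 1.78, SE, n = 7, adjusted p = 0.0679, limma) and Fdps (4.91 ± 1.72, adjusted p = 0.0697). Without section 4, which had the fewest detected genes, 3 of 8 members passed, as did 818 of 7049 genes.

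Section 4 split the members. There Sqle (5.84), Insig1 (5.66), Idi1 (5.23) and Fdps (4.72) were high, while Fdft1, Cyp51 and Dhcr7 were listed at 0 and Hmgcs1 stood at 0.13. Of 4016 genes that reached an FPKM of 1 in sections 6 to 8, 54.0% were listed at 0 in section 4, so 3 of 8 members is near that share. In sections 6, 7 and 8, Hmgcs1 had 3.40, 3.67 and 3.79 and Cyp51 had 2.72, 2.86 and 2.60. These were the steadiest members in those sections. Insig1 had 4.35, 5.77 and 3.91 there, Dhcr7 had 2.18, 3.02 and 3.82, and Fdft1 had 3.41, 1.69 and 2.50. In section 1 all 8 were listed at 0, as were 65.7% of those 4016 genes. Idi1 stood out in section 2, with 3.75, where Hmgcs1, Fdft1, Dhcr7 and Insig1 were listed at 0.

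**Figure D4:**
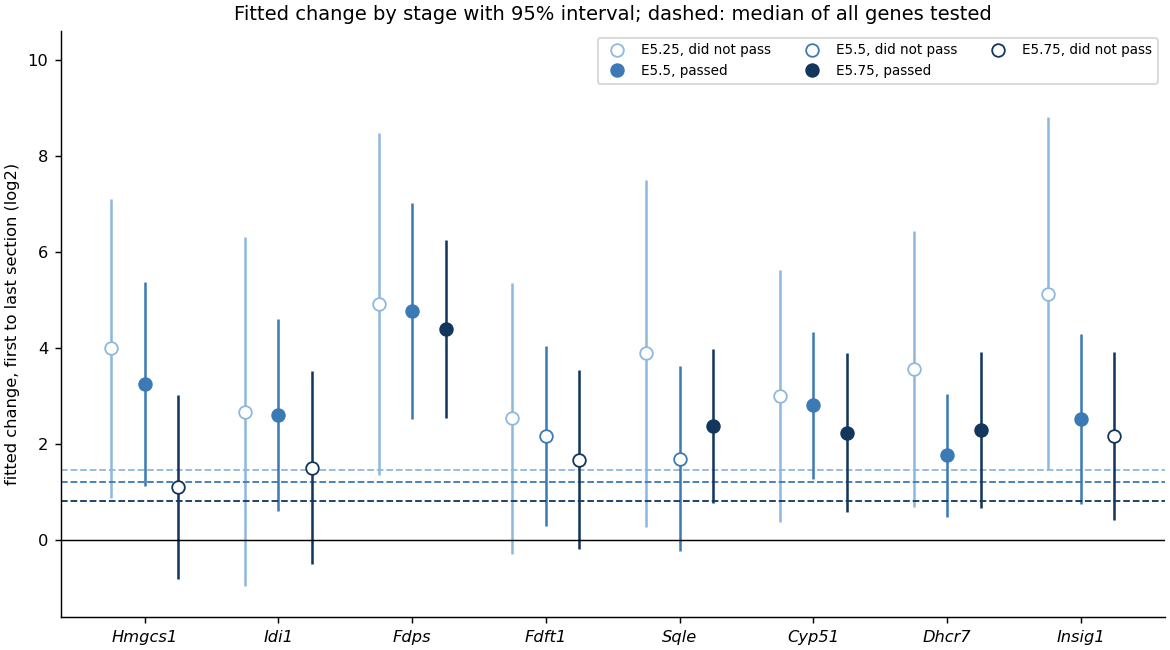
Fitted change of each member from the first to the last section (log2, y axis) with its 95% interval, by stage; filled circles passed at an adjusted p of 0.05, and dashed lines are the medians of all genes tested, at 1.45, 1.22 and 0.80. Fdps is near 4.4 to 4.9 at each stage, and Hmgcs1 is lower at E5.75 than at E5.25, with overlapping intervals.

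The slopes of the 3 stages were compared in 1 model. No member differed between stages, with 0 of 8 past an adjusted p of 0.05 in each contrast and 0 of 8 under an unadjusted p of 0.05. Over 8831 genes, 0% passed for E5.5 minus E5.25, 0.419% for E5.75 minus E5.5 and 1.03% for E5.75 minus E5.25. Unadjusted, 6.94%, 11.3% and 12.9% of genes were under 0.05. The smallest adjusted p of a member was that of Insig1 for E5.75 minus E5.25 (-2.96 ± 1.52, adjusted p = 0.411, limma). For Hmgcs1 the same contrast gave -2.89 ± 1.58 (adjusted p = 0.450). Fdps had the smallest difference there, -0.51 ± 1.58. The errors are wide, so these values do not show that the slopes are alike.

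The 2 VE libraries had almost no reads of the pathway. In VE of section 6 all 8 members were listed at 0, and in VE of section 7 Hmgcs1 (3.41) and Fdft1 (1.21) were above 0. Thus 6 of 8 members were listed at 0 in both, and so were 59.3% of 6026 genes that reached an FPKM of 1 in the companion libraries of sections 6 and 7. Of the members 7 of 8 were lower in VE, where 56.6% of the 6413 genes tested were lower and 0.624% higher.

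Fdps was listed at 0 in both VE libraries, against 4.28 and 5.52 in the companion libraries, a fitted difference of -4.90 ± 0.60 (SE, n = 2 each, adjusted p = 0.00972, limma). Idi1 was 0 and 0 in VE, against 3.80 and 4.66 (-4.23 ± 0.44, adjusted p = 0.00702). Sqle was 0 and 0 in VE, against 3.69 and 4.46 (-4.07 ± 0.40, adjusted p = 0.00638). By their mean in the companion libraries, these 3 and Hmgcs1 are the highest members. Insig1 was 0 and 0 in VE, against 2.92 and 3.26, Cyp51 0 and 0, against 3.13 and 2.82, and Dhcr7 0 and 0, against 2.37 and 2.04. Their differences of -3.09, -2.98 and -2.20 passed too (adjusted p = 0.00471, 0.00471 and 0.00480, limma). Members listed at 0 in both VE libraries entered the test through the companion libraries alone, and their VE values have no spread. A lower value in VE was thus nearly fixed in advance for them, and their p-values add no support. Fdft1 was 0 and 1.21 in VE, against 3.96 and 3.23 (-2.99 ± 0.63, adjusted p = 0.0313), but did not pass with section number as a block (adjusted p = 0.0560). Hmgcs1 was 0 and 3.41 in VE, against 4.78 and 4.71, and did not pass (-3.04 ± 1.45, adjusted p = 0.180).

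The median over all genes was -2.09, so a typical gene was lower in VE too, and the members' median was -3.07. Rn45s, the ribosomal RNA precursor, took 62.2% and 48.8% of the summed FPKM in VE of sections 6 and 7, against 5.70% and 3.89% in the companion libraries. Of the 12 visceral endoderm markers 5 and 6 were detected in VE, against 4 and 4, and they summed to 52.2 and 517 FPKM, against 39.0 and 20.2. Afp, Foxa2, Gata4 and Rbp4 of this list were listed at 0 in both VE libraries, but stood at only 0 to 1.66 in the companion libraries. Amn (7.71), Apoa1 (7.01), Ttr (6.44) and Dab2 (5.60) were high in VE of section 7. In VE of section 6 Amn and Ttr were listed at 0, and Apoa1 (2.23) and Dab2 (1.82) were below its companion. Of 6 markers tested 5 had fitted differences above 0, with a median of 1.85. Among them 1 passed, Apob (4.07 ± 0.87, adjusted p = 0.0324, limma). The 8 epiblast markers summed to 190 and 180 in VE, against 664 and 598, and the blood markers in the table, 3 of 4, summed to 4271 in VE of section 6 and 4.54 in VE of section 7, in each from the joined alpha globin genes alone. Detection and cell type cannot be told apart in this comparison. After quantile normalization 0 of 8 members passed. When either companion library was left out, only 2 members could be tested and 0 passed.

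**Figure D5:**
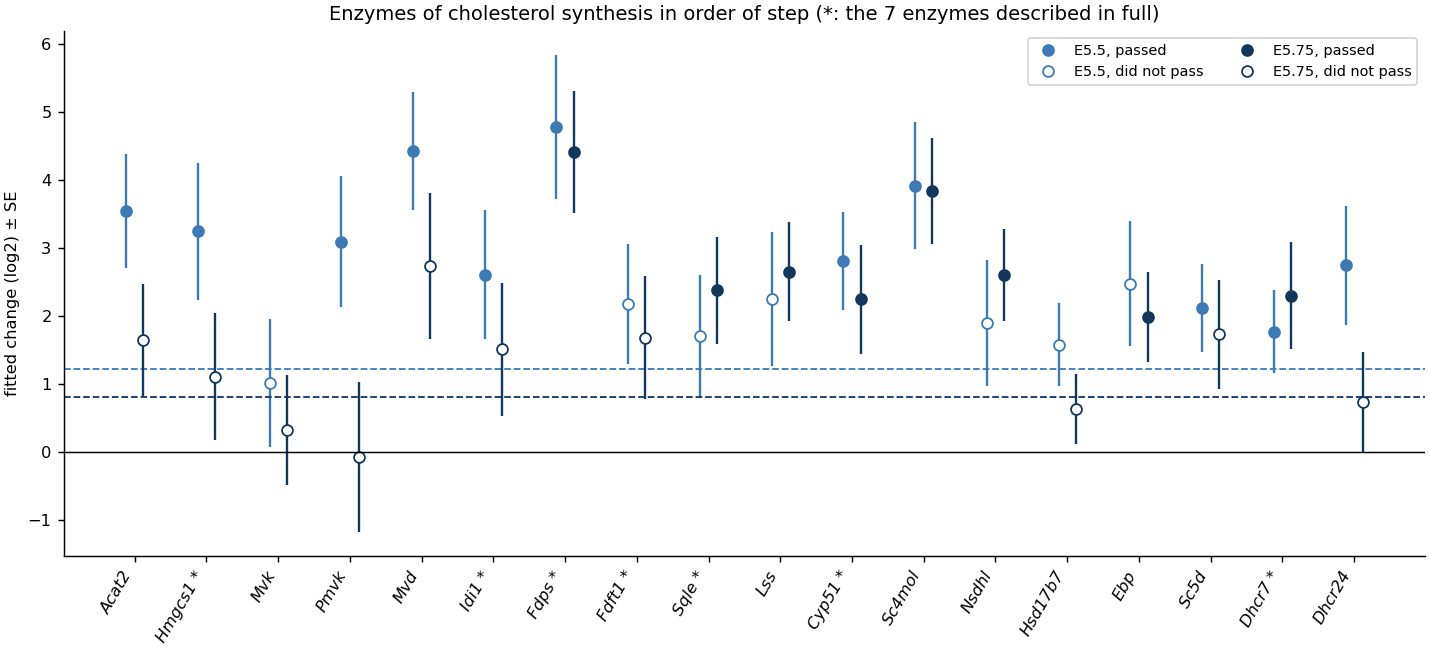
Fitted change from the first to the last section (log2 ± SE, y axis) of 18 of the 19 enzymes of cholesterol synthesis tested, in order of step, at E5.5 and E5.75; filled circles passed, dashed lines are the medians of all genes tested (1.22 and 0.80), and asterisks mark the 7 enzymes described in full. Fdps and Sc4mol are high at both stages, and Pmvk is below 0 at E5.75.

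The remaining 12 measured enzymes of the pathway were counted as a whole. At E5.75, 5 of 12 rose and none fell, where 18.9% of all genes rose. The median change was 1.85, against 0.80 for all genes. At E5.5, 7 of 12 rose, where 28.3% of all genes rose, with a median of 2.61, against 1.22. Sc4mol, the older symbol of the sterol methyl oxidase Msmo1, rose by 3.84 ± 0.78 at E5.75 (adjusted p = 0.00147, limma), and by 2.80 ± 0.75 without sections 1 and 2 (adjusted p = 0.0162), the only one of the 12 to pass there. Nsdhl, which acts on the same methyl groups, rose by 2.61 ± 0.68, and Lss, the cyclase that forms lanosterol, by 2.65 ± 0.73. Pmvk, a kinase of the mevalonate steps, was at -0.07 ± 1.10 (adjusted p = 0.969). At E5.5 the smallest p was that of Mvd, the last enzyme before isopentenyl diphosphate (4.42 ± 0.87, adjusted p = 0.00217), and it alone passed without sections 1 and 2 (3.48 ± 0.88, adjusted p = 0.0445). Acat2 (3.55 ± 0.84) and Sc4mol (3.92 ± 0.94) followed. At E5.25, 0 of 12 passed and 9 of 12 were under an unadjusted p of 0.05, against 0.406% and 34.9% of all genes. In VE 7 of the 10 tested were lower, where 56.6% of all genes were, among them Pmvk (0 and 0 in VE, against 2.47 and 2.52). Ebp (0 and 2.46 in VE, against 1.02 and 0.17) and Nsdhl (0 and 2.15 in VE, against 0.67 and 1.21) had fitted differences above 0 and did not pass.

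Control genes of SREBP were counted in the same way. At E5.75, 0 of 6 rose, where 18.9% of all genes did. At E5.5, 2 of 6 rose, near the share of all genes (28.3%). All 6 fitted changes were above 0 at both stages. Their medians were 1.98 at E5.5 and 1.155 at E5.75, against 1.22 and 0.80 for all genes. The 2 that rose at E5.5 were the protease gene Mbtps1 (3.18 ± 0.74, adjusted p = 0.00523, limma) and Srebf1 (2.0 ± 0.61, adjusted p = 0.0226). Without sections 1 and 2 neither passed (1.97 and 1.18, adjusted p = 0.130 and 0.290). Srebf2, which encodes SREBP-2, changed by 2.01 ± 0.79 at E5.5 (adjusted p = 0.0634) and by 1.62 ± 0.79 at E5.75 (adjusted p = 0.142). At E5.25, 0 of 4 passed, against 0.406% of all genes. In VE 3 of 4 were lower, where 56.6% of all genes were. Srebf2 was 0 and 2.81 in VE, against 1.93 and 1.70 (-0.41 ± 1.14, adjusted p = 0.822, limma).

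Genes of the isoprenoid branch use the product of Fdps or its precursors. At E5.75, 2 of 6 rose, where 18.9% of all genes rose. They were Fntb, a subunit of the farnesyltransferase (2.21 ± 0.75, adjusted p = 0.0381, limma), and Coq2, an enzyme of ubiquinone synthesis (2.28 ± 0.80, adjusted p = 0.0457). Neither passed without sections 1 and 2. Ggps1, which extends farnesyl diphosphate by another unit, had the opposite sign, -1.11 ± 0.65 (adjusted p = 0.224). At E5.5, 1 of 5 rose, where 28.3% of all genes rose, and it was Coq2 (2.29 ± 0.66, adjusted p = 0.0162, and 0.0728 without sections 1 and 2). At E5.25 it was 0 of 4, against 0.406% of all genes. Ggps1 was well detected in VE, at 4.68 and 5.52, against 4.09 and 4.57 in the companion libraries (0.77 ± 0.84, adjusted p = 0.542). The other 5 isoprenoid genes were listed at 0 in both VE libraries. Of these 5, Dhdds, Pdss1 and Pdss2 stood at 0 to 1.43 in the companion libraries, and Coq2 and Fntb at 1.17 to 2.73. Of all genes that reached an FPKM of 1 in both companion libraries, 59.3% were listed at 0 in both VE libraries.

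Some genes of uptake and storage rose. At E5.75 it was 4 of 8, where 18.9% of all genes rose. Among them were Soat1, which esterifies cholesterol (2.58 ± 0.64, adjusted p = 0.00680, limma), the lysosomal exporter Npc1 (1.62 ± 0.44, adjusted p = 0.0123) and the HDL receptor Scarb1 (2.35 ± 0.76, adjusted p = 0.0313). Soat1 and Npc1 still passed without sections 1 and 2 (2.01 ± 0.55, adjusted p = 0.0188, and 1.49 ± 0.48, adjusted p = 0.0459). At E5.5, 2 of 6 rose, near the share of all genes (28.3%), among them Npc2 (2.82 ± 0.96, and an adjusted p = 0.112 without sections 1 and 2). At E5.25 it was 0 of 7, against 0.406% of all genes. In VE 1 of 4 was lower, where 56.6% of all genes were. Soat1 was 2.48 and 2.83 in VE, against 2.91 and 2.54.

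The next list held LXR genes, efflux genes and LXR targets, which respond to surplus sterol. In VE 2 of its genes were tested, with 1 higher and 1 lower. The higher was Apoe, a lipoprotein component, at 7.99 and 9.22, against 4.11 and 4.70 (4.20 ± 0.91, adjusted p = 0.0337, limma). Apoe did not pass with section number as a block (adjusted p = 0.131). The lower was Nr1h2, which encodes an LXR (0 and 0 in VE, against 2.72 and 2.62). Along the sections 1 of 2 rose at E5.5, where 28.3% of all genes rose, and it was again Apoe (6.05 ± 1.28, adjusted p = 0.00332). The count was 0 of 4 at E5.75, where 18.9% of all genes rose, and 0 of 2 at E5.25. Without sections 1 and 2 Apoe did not pass at E5.5 (1.93 ± 0.97, adjusted p = 0.243), but it did at E5.75 (3.24, adjusted p = 0.0153). Fatty acid synthesis is under SREBP-1. Of that list 2 of 8 rose at E5.75, near the share of all genes (18.9%). They were the desaturase Scd1 (4.20 ± 0.77, adjusted p = 6.71e-04) and Acly, which makes cytosolic acetyl-CoA (2.85 ± 0.74, adjusted p = 0.00954). The same 2 of 8 rose at E5.5 (3.59 ± 0.87 and 2.71 ± 0.82), near the share of all genes (28.3%), and neither passed there without sections 1 and 2 (2.85 and 1.08, adjusted p = 0.0872 and 0.402). At E5.25 it was 0 of 7. Scd1 also passed at E5.75 without sections 1 and 2 (3.06 ± 0.73, adjusted p = 0.00752). In VE 4 of 6 were lower, among them Acly, where 56.6% of all genes were.

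The members varied together less once sections 1 and 2 were left out, and the part of detection in this was not tested. Over the 17 sections of E5.75 the 28 pairs of members had Pearson r between 0.52 and 0.91, with a median of 0.73. Over the 15 sections without 1 and 2, r ran from -0.09 (Fdft1 with Dhcr7) to 0.74 (Sqle with Cyp51), with a median of 0.33. These points share libraries and detection, and the values are a description. Over all 17 sections the mean of the 8 members had r = 0.94 with the number of detected genes, and over the 15 it had 0.76. Among 4179 other genes with a mean FPKM of at least 5, the 10 with profiles most like that mean over the 17 sections included Mir1949Snhg4 (r = 0.94), Slc30a5, Ttc9c, Ccnt2, Traf7, Slc25a39, Arl6ip1, Slbp and 2310036O22Rik, down to r = 0.93. Without sections 1 and 2 these 9 had r of 0.52 to 0.76.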

How the data were processed

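Frozen embryos were cut, microdissected by laser and turned into Smart-seq2 libraries, per the labels' protocols. Per the submitters' processing notes the tools included Cufflinks 2.0.2 and TopHat2 2.0.4, with build mm10. The authors deposited 1 table of log2 FPKM per stage, read here as log2(FPKM + 1) because values start at 0; their normalization is not given in the sources used here. Parts A and B of E5.5 section 10 were averaged, though 1 label calls part B section 11. Other E5.5 sections had 1 value each, and how their parts were joined is not stated.

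The tests were limma 3.58.1 in R 4.3.3 (eBayes, trend, 2-sided), on genes that reached an FPKM of 1 in 2 or more of the samples used, adjusted by Benjamini-Hochberg over all genes at 0.05. Per stage a line in section number was fitted, scaled so that its slope is the change from first to last section. VE of sections 6 and 7 was set against the companion libraries of these sections, without a block. A joint model compared slopes between stages. The members and the wider lists were chosen with earlier results of these data known; up to 4 genes of a wider list were named by smallest p, and Pmvk, Srebf2, Ggps1, the other genes given for VE and the ranges of sections were chosen after their values were seen. Tm7sf2, Lipa and Scd2 are not analysed here, and a few genes that enter the counts are not reported by name. The fits were tested on simulated data. Pseudogenes were sought in GENCODE vM21 transcripts.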

Additional observations from a re-analysis of the deposited data

How the results depend on the processing

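The members' calls rest on few sections and on the scaling. At E5.75, 4 members passed, and 1 passed with a pseudocount of 5, a common sum, quantile normalization, without sections 1 and 2, and, added after seeing the data, without sections 1 to 3, without sections 1, 2 and 19, and without sections 1 and 2 after quantile normalization; with detected genes as a covariate 0 passed. Leaving out 1 section gave 1 to 5 members, with 1 left without section 1 or 2, 2 without section 14, 15 or 17, and 5 without section 19. Fdps passed in 30 of 31 alternatives at E5.75. With the covariate 6 of 8 members turned below 0, Sqle and Cyp51 to -0.23 and -0.40 and, of those that had not passed, Hmgcs1, Idi1, Fdft1 and Insig1 to -2.09, -1.77, -0.69 and -0.04. At E5.5, 6 members passed, against 3 with a pseudocount of 5, 2 with a common sum, 1 after quantile normalization and 0 with the covariate, without sections 1 and 2, or without them after quantile normalization; leaving out 1 section gave 2 to 6, with 3 without section 1 and 2 without section 2. Hmgcs1 turned to -0.16 without sections 1 and 2 and, after quantile normalization as well, Hmgcs1, Idi1 and Fdps to -1.02, -0.19 and -0.25; Idi1 was -1.0 with the covariate. At E5.25, 0 passed, against 1 with a pseudocount of 0.1 or eBayes without trend, 2 with a filter at 5, and 0 to 3 when 1 section was left out (3 without section 4). In VE 7 members were lower, 6 with section number as a replicate block (3800 genes against 3671; Fdft1 did not pass, adjusted p = 0.0560, nor did Apoe), 0 after quantile normalization, and 0 to 8 when 1 library was left out. Shared section numbers are positions, and the deviations of the section 6 libraries from their group means had a correlation of 0.000773, which with 2 pairs does not settle whether they pair the samples. The cause of these shifts was not tested.

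Over all genes, 29 passed at E5.25, against 1006 with a pseudocount of 0.1, 877 with a filter at 5, 514 without trend, 297 with ranks of sections, 3 to 818 when 1 section was left out, and 0 with a pseudocount of 5, no filter, quantile normalization, robust eBayes, the covariate, or without sections 1 and 4. At E5.5, 2547 passed, against 1476 with a common sum, 1168 after quantile normalization (844 up, 324 down, against 2332 up, 215 down), 0 with the covariate, 309 without sections 1 and 2, 12 without them after quantile normalization, and 1703 to 2584 when 1 section was left out. At E5.75, 2339 passed, against 1345 after quantile normalization (845 up, 500 down, against 2108 up, 231 down), 624 with the covariate, 1407 without sections 1 and 2, 1076 without sections 1 to 3, 1220 without sections 1, 2 and 19, 1216 without sections 1 and 2 after quantile normalization, and 1677 to 2487 when 1 section was left out. Quantile normalization moved the median change of all genes to 0.44 at E5.5 and 0.16 at E5.75. In VE 3671 passed, against 1688 with a filter at 5, 0 after quantile normalization, 2297 against sections 3 to 8, and 2 to 5624 when 1 library was left out. For slopes, E5.5 minus E5.25 gave 0 genes, against 7 with a pseudocount of 5 and 16 with the covariate, E5.75 minus E5.5 gave 37, against 8 after quantile normalization and 1 without sections 1 and 2, and E5.75 minus E5.25 gave 91, against 60 without sections 1 and 2. Depth is unknown, so no counting interval can be given.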
